A study of Saccharomyces cerevisiae with 12 samples.

Results

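The 40 genes followed here encode subunits of 4 chromatin remodelling complexes of the budding yeast Saccharomyces cerevisiae, namely INO80, SWR1, SWI/SNF and RSC. Members were taken by symbol from the array annotation, which lists 39 of them among the 5449 genes measured, each with 1 probe set. RSC30 has no listed probe set and was not analysed here. ARP4, RVB1 and RVB2 belong to both INO80 and SWR1, so the complexes held 13, 12, 7 and 10 measured genes. Of the series' 12 arrays, 5 followed yeast given 0.1% methyl methanesulfonate (MMS), an agent that alkylates DNA bases, and 5 followed yeast given 0.3 mM hydrogen peroxide (H2O2), an oxidant. All cultures grew in YPD, a rich medium, at 25 °C to mid-log phase, and the labels name no strain or genotype. The early MMS window held the arrays at 30 and 60 min (n = 2), the late MMS window those at 100, 140 and 180 min (n = 3), and the H2O2 windows had the same times. Both arrays labelled 0 min, 1 from each course, formed time 0 (n = 2).

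Each of these complexes uses the energy of ATP to move, eject or edit nucleosomes, the histone spools that package DNA. INO80 slides nucleosomes and works at promoters, replication forks and DNA breaks, and SWR1 replaces histone H2A with its variant H2A.Z. SWI/SNF and RSC are built from related subunits: SWI/SNF is recruited to inducible promoters and is dispensable for growth in rich medium, whereas RSC is abundant and essential and keeps promoters free of nucleosomes. All 4 have been linked to repair of damaged DNA in yeast. No sequences of these genes were among the sources used here, so identities are given as symbols with the systematic names of the genes that the results turn on.

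Values are log2 signals of the arrays, so a difference of 1 is a 2-fold change, and a change is printed with its SE as fitted by limma. A gene rose or fell where its Benjamini-Hochberg adjusted p over all 5449 genes was under 0.05. With 1 array per stress and time, the times within a window stood in for replicates, so the adjusted p-values measure the spread between time points and not between repeat cultures. The array medians over all genes lay between 9.06 and 9.20, and the 0 min arrays of the courses differed with an SD of 0.15 over all genes and 0.21 over the members. Transcripts known to answer each stress moved in both courses: SRX1, sulfiredoxin, changed by 6.62 ± 0.73 in early MMS and 6.60 ± 0.73 in early H2O2, and RNR3, a damage-induced ribonucleotide reductase subunit, by 3.06 ± 0.39 in late MMS and 2.61 ± 0.39 in late H2O2. Since RNA of whole cultures was measured, fewer cells with a transcript and less of it per cell cannot be told apart.

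In the late MMS window the complexes differed in which way their genes were called. SWI/SNF, SWR1 and INO80 genes moved both ways, with more rises than falls in each complex, and RSC genes fell or did not pass. Differences between the complexes were not tested. Of the 39 members 18 rose and 16 fell against time 0, which is 46.2% and 41% of them, while 74.9% of all genes were called, 40.3% up and 34.6% down. Of these 34 calls 23 passed with each of the 12 arrays left out in turn. In SWI/SNF 5 of 7 rose and 2 fell (median 0.67), in SWR1 7 of 12 rose and 4 fell (median 0.40), in INO80 6 of 13 rose and 5 fell (median 0.20), and in RSC none of 10 rose and 7 fell (median -0.45). The median of all genes was 0.09. Without the 3 shared genes the medians of SWR1 and INO80 were 0.56 and 0.43. In SWR1 7 of 9 then rose and 2 fell, and in INO80 6 of 10 rose and 3 fell. Against the MMS course's own 0 min array the SWI/SNF median was 0.43. That array gave SNF2 9.44, whereas the 0 min array of the H2O2 course gave it 8.97. The SD of a complex's array medians within windows was 0.11 to 0.12.

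**Figure D1:**
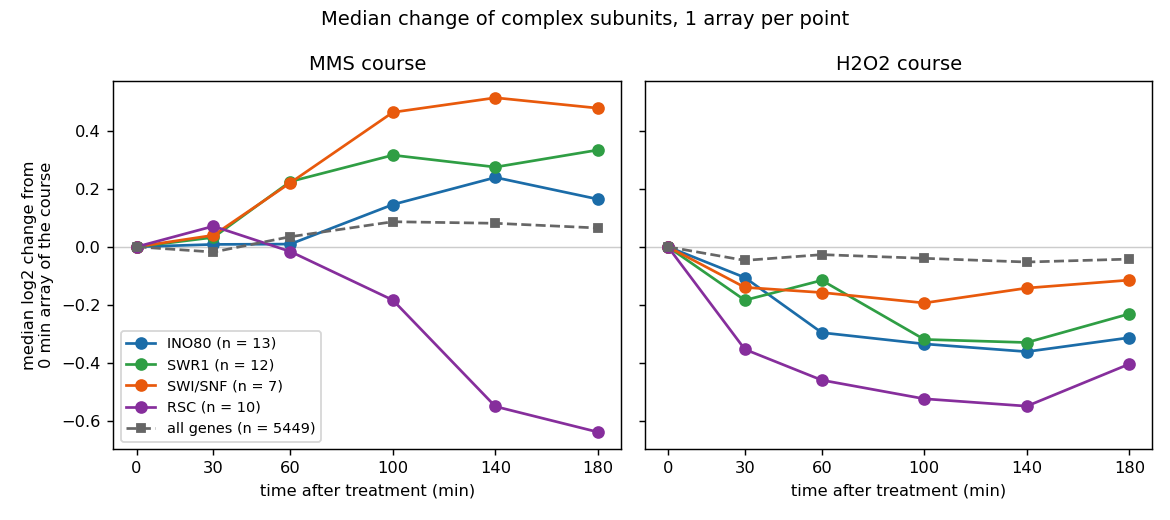
Median log2 change of each complex's measured subunits from its course's own 0 min array (y axis) against time in minutes (x axis), with 1 array per point, MMS left and H2O2 right, and all 5449 genes as the dashed grey line. At 180 min of MMS SWI/SNF stood at 0.48 and RSC at -0.64, and after H2O2 every complex lay below 0 at each time.

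After H2O2 no member rose in either window, and RSC had more genes that fell than any other of the complexes. In the early window 12 of 39 fell (30.8%), where 33.7% of all genes were called, 14.7% up and 19% down. In the late window 15 of 39 fell (38.5%), where 15.4% of all genes were called, 9.12% up and 6.28% down. With time point as a random replicate block the late count was 6. All 39 late log2 changes were below 0, whereas 3089 of the 5449 genes were, and 38 of 39 were with arrays centred on their medians. RSC fell in 6 and 7 of 10 genes in the early and late windows (medians -0.42 and -0.53), INO80 in 5 and 4 of 13 (-0.22 and -0.31), SWR1 in 4 and 5 of 12 (-0.17 and -0.34) and SWI/SNF in 0 and 1 of 7 (-0.16 and -0.24). At an unadjusted p under 0.05 limma gave 15 members early, none of SWI/SNF among them, and 22 late; the 15 include the genes INO80 (0.38 ± 0.14) and SWR1 (0.45 ± 0.18) with values above 0. The medians of all genes were -0.04 and -0.06. With arrays centred on their medians the gene INO80 passed upward in the early window (0.44), as it did with quantile normalization (0.43).

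The early falls outside RSC were in ARP8 (-0.33 ± 0.09), IES3 (-0.45 ± 0.11), ARP4, RVB1, RVB2 and SWC7 (-1.22 ± 0.25). The late ones were in ARP8 (-0.46 ± 0.09), NHP10 (-0.30 ± 0.09), ARP4, RVB2 (-0.38 ± 0.10), SWC3, SWC7, BDF1 (-0.54 ± 0.16) and SWI3 (-0.39 ± 0.11). With arrays centred on their medians NHP10, BDF1, SWI3 and RSC3 did not pass late, and with quantile normalization NHP10, RVB2 (-0.32) and BDF1 did not. The calls rest on few arrays: of the 12 early ones only that of SWC7, the dimmest member, passed with each array left out in turn, at -0.76 without the 0 min array of the MMS course, and of the 15 late ones none did. The early count of 12 was 2 without the 0 min array of either course and 2 without the 60 min H2O2 array. The late count of 15 was 1 without the 0 min array of the H2O2 course, 0 without that of the MMS course, 4 without the 100 min H2O2 array, 1 without the 140 min H2O2 array and 7 without the 140 min MMS array.

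**Figure D2:**
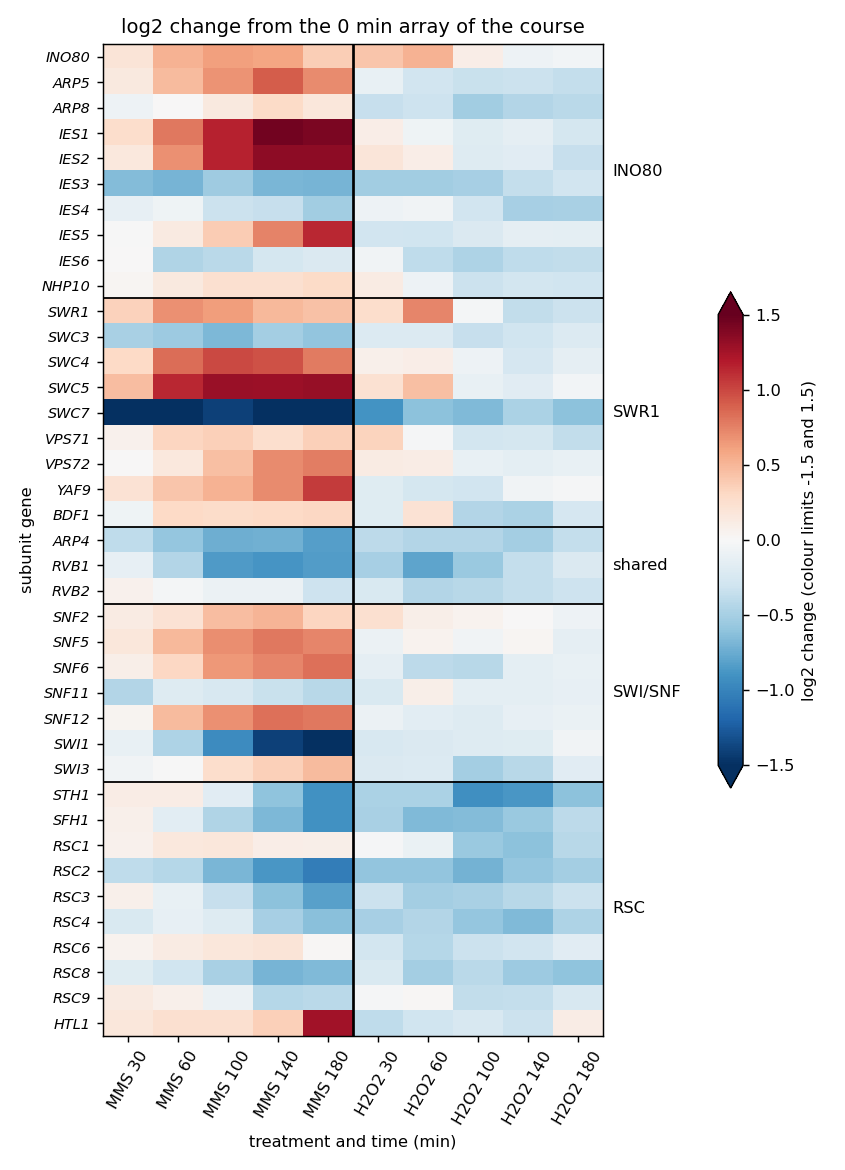
Log2 change of each of the 39 measured subunits (rows, grouped by complex) from the 0 min array of its course in each of the 10 later arrays (columns, treatment and minutes), in colour from -1.5 (blue) to 1.5 (red). IES1, IES2 and SWC5 are the deepest red late after MMS and SWC7 and SWI1 the deepest blue, and the H2O2 columns are mostly pale blue.

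The gene INO80 (YGL150C), which encodes the motor ATPase of its complex, rose late after MMS. Its signals from 0 to 180 min were 9.12, 9.30, 9.64, 9.73, 9.71 and 9.49 in the MMS course and 8.95, 9.37, 9.46, 9.05, 8.88 and 8.91 in the H2O2 course. All late MMS arrays lay above both arrays at 0 min, and after H2O2 the signal was high at 30 and 60 min and back near the 0 min level from 100 min. The change was 0.61 ± 0.13 late after MMS (adjusted p = 0.00161) and -0.09 ± 0.13 late after H2O2 (adjusted p = 0.647). INO80 fell from the early to the late H2O2 window (-0.47 ± 0.13, adjusted p = 0.0486), but did not pass without either 0 min array, the 30, 60, 140 or 180 min H2O2 array or the 100 or 140 min MMS array (-0.52 to -0.43).

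The largest rises in the INO80 complex belonged to IES1 and IES2. IES1 (YFL013C), part of the species-specific Nhp10 module, had signals of 9.05, 9.32, 9.84, 10.21, 10.50 and 10.46 from 0 to 180 min of MMS and 9.13, 9.23, 9.07, 8.95, 9.0 and 8.87 over the H2O2 course. IES2 (YNL215W), which stimulates the ATPase, had 9.03, 9.18, 9.71, 10.19, 10.37 and 10.37 over the MMS course and 9.07, 9.25, 9.17, 8.88, 8.90 and 8.73 over the H2O2 course. For both genes the late MMS arrays lay above every other array of the series. Late after MMS IES1 was 2.46-fold higher than at time 0 (1.30 ± 0.15, adjusted p = 7.54e-05) and IES2 2.4-fold (1.26 ± 0.15, adjusted p = 6.97e-05). Late after H2O2 they were at -0.15 ± 0.15 and -0.21 ± 0.15, which did not pass the test.

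Within modules of INO80 some genes rose and others fell late after MMS. In the Nhp10 module IES1, IES5 (0.68 ± 0.18) and the HMG-box protein gene NHP10 (0.25 ± 0.09) rose late, whereas IES3 fell (-0.71 ± 0.10). ARP5 and IES6 encode partners in the module that grips the nucleosome, and ARP5 rose (0.83 ± 0.12) while IES6 fell (-0.38 ± 0.15). In the actin-related module ARP8, which contacts linker DNA, was at 0.20 ± 0.09 (adjusted p = 0.0554), and IES4, a target of the Mec1 and Tel1 damage kinases, fell (-0.50 ± 0.11). NHP10 did not pass with arrays centred on their medians (0.19, adjusted p = 0.0695). IES6 did not pass without either 0 min array, any late H2O2 array or the 100 or 140 min MMS array (log2 change -0.47 to -0.29), nor NHP10 without either 0 min array or the 140 or 180 min MMS array (0.24 to 0.26).

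The subunits that INO80 shares with SWR1 did not rise in any window against time 0. ARP4 (YJL081C), an actin-related protein found also in the NuA4 acetyltransferase, fell in all 4 windows, by 0.50 ± 0.10 in early MMS, 0.40 ± 0.10 in early H2O2, 0.78 ± 0.09 in late MMS and 0.42 ± 0.09 in late H2O2 on the log2 scale. Its signals were 9.61, 9.23, 9.03, 8.88, 8.89 and 8.79 over the MMS course and 9.65, 9.25, 9.21, 9.21, 9.14 and 9.29 over the H2O2 course, and no array after time 0 reached either 0 min array. Against its course's own 0 min array ARP4 passed late after MMS but not early after MMS (adjusted p = 0.0673), early after H2O2 (0.077) or late after H2O2 (0.142). RVB1 (YDR190C) and RVB2 (YPL235W) encode the AAA+ ATPases that form a mixed ring in both complexes and serve other assemblies too. RVB1 had 11.69, 11.56, 11.24, 10.84, 10.81 and 10.84 over the MMS course and 11.74, 11.25, 10.95, 11.18, 11.38 and 11.53 over the H2O2 course, lowest at 60 min of H2O2 and from 100 min of MMS. RVB2 had 10.73, 10.79, 10.70, 10.64, 10.64 and 10.42 over the MMS course and 10.71, 10.47, 10.27, 10.29, 10.34 and 10.39 over the H2O2 course. Late after MMS RVB1 fell (-0.89 ± 0.14, adjusted p = 0.000277), whereas RVB2 was at -0.15 ± 0.10 (adjusted p = 0.208). Early after H2O2 both fell, RVB1 by 0.62 ± 0.15 and RVB2 by 0.35 ± 0.11 on the log2 scale, and RVB2 did not pass with arrays centred on their medians (-0.29).

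In the SWR1 complex most subunits of its own rose late after MMS, 7 of 9, with SWC3 and SWC7 falling, where 40.3% of all genes rose and 34.6% fell. The gene SWR1 (YDR334W), its ATPase, had signals of 8.30, 8.64, 8.98, 8.93, 8.79 and 8.73 from 0 to 180 min of MMS and 8.22, 8.48, 8.95, 8.19, 7.84 and 7.89 over the H2O2 course. Both courses peaked at 60 min, after which the MMS arrays stayed above both 0 min arrays and the H2O2 arrays dropped below them. The change was 0.56 ± 0.17 late after MMS (adjusted p = 0.012), but 0.52 with adjusted p = 0.0708 against the MMS course's own 0 min array. From the early to the late H2O2 window SWR1 fell (-0.74 ± 0.17, adjusted p = 0.0283), but did not pass without either 0 min array, the 60, 140 or 180 min H2O2 array or the 140 min MMS array (-0.74 to -0.50).

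SWC5 (YBR231C), which is needed for the histone exchange itself, rose most among the 39 members in late MMS. It had 8.09, 8.55, 9.23, 9.39, 9.37 and 9.40 over the MMS course and 8.03, 8.26, 8.48, 7.92, 7.86 and 7.99 over the H2O2 course, with every MMS array after 0 min above every H2O2 array. The late MMS change was 2.5-fold (1.32 ± 0.17, adjusted p = 0.0001). SWC4 (YGR002C), an essential subunit that SWR1 shares with NuA4, had 8.51, 8.81, 9.34, 9.50, 9.47 and 9.30 over the MMS course and 8.66, 8.74, 8.75, 8.58, 8.40 and 8.52 over the H2O2 course, and rose late after MMS (0.84 ± 0.15, adjusted p = 0.000589).

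YAF9, a reader of acylated histones also found in NuA4 (0.75 ± 0.15), VPS72, which binds H2A.Z (0.68 ± 0.11), BDF1, a double bromodomain protein that binds acetylated histones (0.44 ± 0.16) and VPS71 (0.36 ± 0.12) rose as well. BDF1 did not pass without the 0 min H2O2 array or the 140 or 180 min MMS array (0.30 to 0.44), nor VPS71 without either 0 min array or the 180 min MMS array (0.32 to 0.40) or with quantile normalization (0.30). SWC3 fell late after MMS (-0.53 ± 0.09) and late after H2O2 (-0.34 ± 0.09). SWC7 (YLR385C) was the dimmest member, with signals of 4.65, 3.0, 2.92, 3.25, 3.02 and 2.86 over the MMS course and 3.72, 2.82, 3.10, 3.06, 3.25 and 3.10 over the H2O2 course. All 10 later arrays lay below both 0 min arrays, which differed by 0.93 between themselves, and the mean over the 12 arrays exceeded that of only 1.9% of genes. SWC7 fell in late MMS (-1.14 ± 0.23, -0.67 without the 0 min array of the MMS course) and late H2O2 (-1.05 ± 0.23), the H2O2 change being -0.58 and not passing against the H2O2 course's own 0 min array.

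In SWI/SNF all 7 genes were called late after MMS, of which SWI1 and SNF11 fell and the other 5 rose, in a comparison that called 74.9% of all genes. SNF2 (YOR290C), the ATPase, had signals of 9.44, 9.56, 9.66, 9.91, 9.96 and 9.77 over the MMS course and 8.97, 9.21, 9.06, 9.02, 8.98 and 8.89 over the H2O2 course. The late MMS arrays lay above both 0 min arrays, which stood 0.47 apart. SNF2 rose late after MMS (0.67 ± 0.14, adjusted p = 0.00141; 0.43 and adjusted p = 0.0183 without the 0 min array of the H2O2 course) and was at -0.24 ± 0.14 late after H2O2 (adjusted p = 0.236).

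SNF5 (YBR289W), a conserved core subunit, had 8.68, 8.85, 9.17, 9.38, 9.47 and 9.42 over the MMS course and 8.52, 8.43, 8.57, 8.47, 8.54 and 8.38 over the H2O2 course. SNF12 (YNR023W), a further core subunit, had 8.39, 8.43, 8.86, 9.08, 9.21 and 9.18 over the MMS course and 8.31, 8.22, 8.15, 8.11, 8.18 and 8.21 over the H2O2 course. Both were higher from 60 min of MMS than at 0 and 30 min and than in any H2O2 array. They rose late after MMS, SNF5 by 1.77-fold (0.82 ± 0.11, adjusted p = 0.000155) and SNF12 by 1.75-fold (0.81 ± 0.12, adjusted p = 0.000246). SNF6 (0.75 ± 0.13) and SWI3, a SANT-domain scaffold (0.39 ± 0.11), rose too, and SWI3 did not pass against the MMS course's own 0 min array (0.37, adjusted p = 0.0625).

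SWI1 (YPL016W), a large subunit with an ARID domain that contacts activators, fell late after MMS, by 1.17 ± 0.18 on the log2 scale (adjusted p = 0.000285). Its signals were 8.65, 8.54, 8.18, 7.71, 7.25 and 7.09 over the MMS course and 8.38, 8.14, 8.16, 8.18, 8.20 and 8.33 over the H2O2 course, so that each later MMS array was lower than the one before it. Late MMS arrays lay below every other array of the series for this gene. SNF11 (YDR073W), a small subunit that binds Snf2, had 9.03, 8.59, 8.84, 8.79, 8.70 and 8.61 over the MMS course and 9.19, 8.96, 9.29, 9.04, 9.04 and 9.07 over the H2O2 course. It fell late after MMS (-0.41 ± 0.12, adjusted p = 0.0115), but did not pass against the MMS course's own 0 min array (-0.33, adjusted p = 0.0997).

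**Figure D3:**
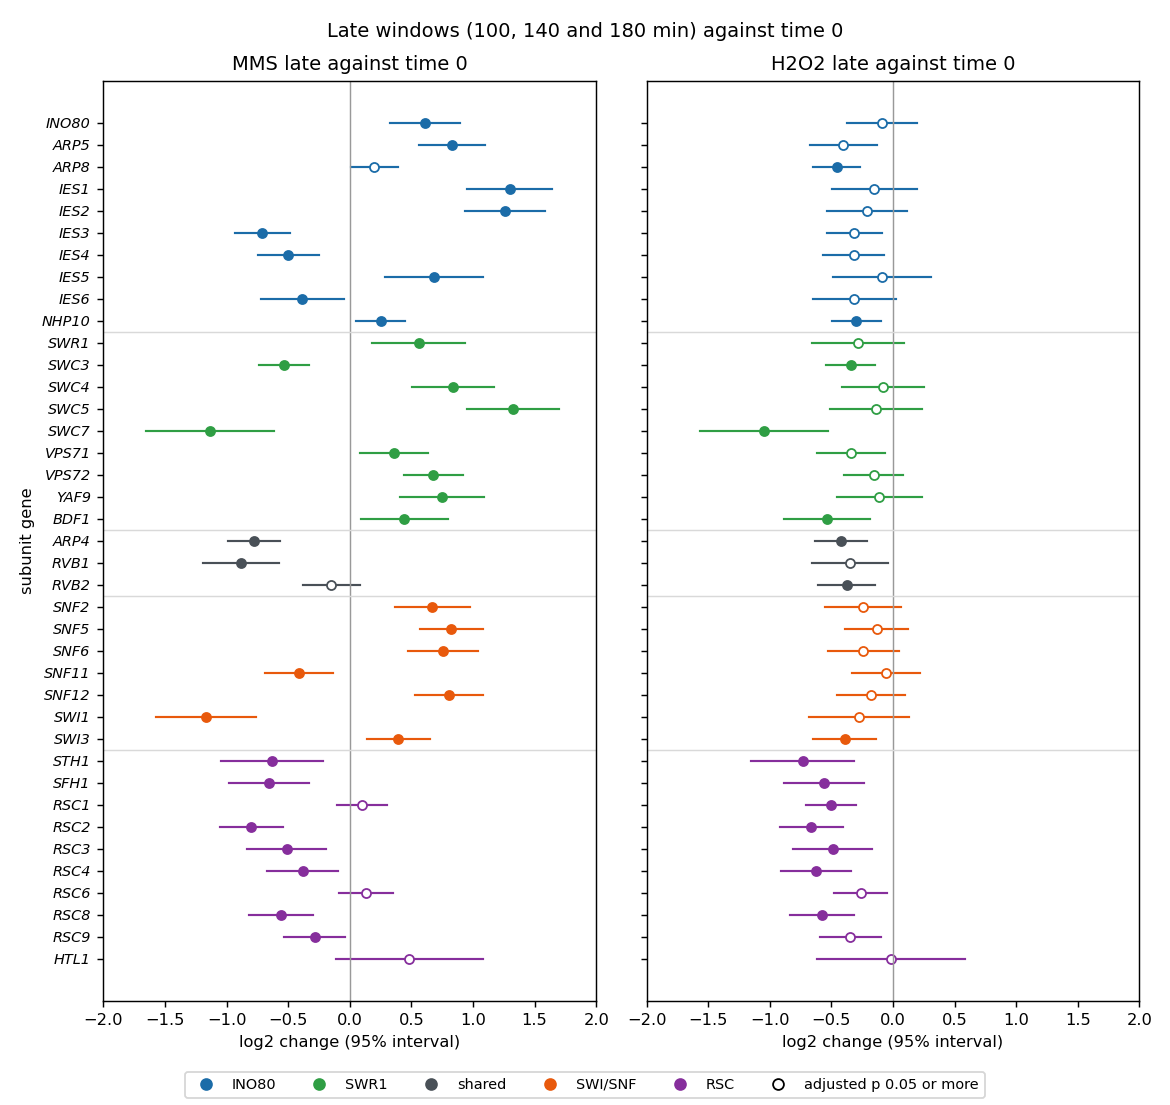
Log2 change of each subunit against time 0 (x axis) in the late MMS window, left, and the late H2O2 window, right, with 95% intervals as bars, coloured by complex; filled points passed the test. Most INO80, SWR1 and SWI/SNF points lie right of 0 after MMS, with SWI1 at -1.17, and all RSC points that passed lie left of 0 in both panels.

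RSC members fell after both agents, whereas its subunits NPL6, LDB7 and RSC58, outside the 40 genes, did not pass late after MMS. For NPL6, LDB7 and RSC58 all late H2O2 arrays lay below both 0 min arrays. Of outside subunits that RSC shares with SWI/SNF, ARP7 rose and RTT102 fell late after MMS. Late after MMS 7 of 10 members fell, where 34.6% of all genes did. Already early after H2O2 6 of 10 fell, where 19% of all genes did. None of those 6 (SFH1, RSC2, RSC3, RSC4, RSC6 and RSC8) passed against the H2O2 course's own 0 min array (adjusted p = 0.0523 to 0.185). STH1 (YIL126W), the ATPase of RSC and the paralogue of SNF2, had signals of 9.20, 9.31, 9.31, 9.03, 8.60 and 8.29 over the MMS course and 9.34, 8.86, 8.86, 8.42, 8.46 and 8.72 over the H2O2 course. Every H2O2 array after 0 min lay below both 0 min arrays, whereas the MMS arrays at 30 and 60 min did not and those from 100 min did. STH1 fell late after MMS (-0.63 ± 0.19, adjusted p = 0.0111) and late after H2O2 (-0.73 ± 0.19, adjusted p = 0.0296). Against its course's own 0 min array it did not pass, at -0.56 for MMS and -0.80 for H2O2.

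RSC1 and RSC2 encode paralogous bromodomain proteins that define alternative forms of RSC. RSC2 (YLR357W) had 8.61, 8.23, 8.17, 7.92, 7.74 and 7.57 over the MMS course and 8.48, 7.89, 7.89, 7.77, 7.90 and 7.97 over the H2O2 course, with every later array of both courses below both 0 min arrays. RSC1 (YGR056W) had 8.28, 8.35, 8.44, 8.46, 8.38 and 8.37 over the MMS course and 8.33, 8.32, 8.23, 7.77, 7.71 and 7.92 over the H2O2 course, with its lowest signals from 100 min of H2O2. Late after MMS RSC2 fell (-0.80 ± 0.12, adjusted p = 0.000184) and RSC1 was at 0.10 ± 0.09 (adjusted p = 0.356, 95% interval -0.11 to 0.30). Late after H2O2 both fell, RSC2 by 0.66 ± 0.12 and RSC1 by 0.51 ± 0.09 on the log2 scale. RSC3 (YDR303C), a zinc-cluster DNA-binding subunit whose paralogue is RSC30, had 8.81, 8.88, 8.70, 8.47, 8.19 and 7.99 over the MMS course and 8.64, 8.32, 8.13, 8.15, 8.23 and 8.32 over the H2O2 course. It fell late after MMS (-0.51 ± 0.14) and late after H2O2 (-0.49 ± 0.14, adjusted p = 0.0463). The late MMS fall did not pass without the 0 min MMS array (-0.43), and the late H2O2 fall did not with arrays centred on their medians (-0.46, adjusted p = 0.0519).

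Among the other RSC genes SFH1 (-0.65 ± 0.15), the scaffold gene RSC8 (-0.56 ± 0.12), the bromodomain gene RSC4 (-0.38 ± 0.13) and RSC9 (-0.29 ± 0.11) fell late after MMS. RSC4 did not pass without the 0, 140 or 180 min MMS array (-0.35 to -0.29), nor RSC9 without either 0 min array, the 30, 60, 100 or 140 min H2O2 array or the 140 or 180 min MMS array (-0.31 to -0.22). Late after H2O2 SFH1 (-0.56 ± 0.15), RSC8 (-0.58 ± 0.12) and RSC4 (-0.63 ± 0.13) fell, while RSC9 (-0.35 ± 0.11, adjusted p = 0.0639) and RSC6 (-0.26 ± 0.10, adjusted p = 0.0939) did not pass. HTL1, a small subunit, passed in none of the 8 comparisons and was the only member of which this held. Its 180 min MMS array read 8.57, against 7.31 to 7.67 in the other MMS arrays and 7.20 to 7.69 in the H2O2 course.

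Of the SWI/SNF members followed here, 4 have a paralogue among the RSC members, and the late MMS changes of these pairs were set side by side. Subunits outside the list were not paired. SNF2 and STH1 were at 0.67 ± 0.14 and -0.63 ± 0.19, SNF5 and SFH1 at 0.82 ± 0.11 and -0.65 ± 0.15, SWI3 and RSC8 at 0.39 ± 0.11 and -0.56 ± 0.12, and SNF12 and RSC6 at 0.81 ± 0.12 and 0.13 ± 0.10. The SWI/SNF partner rose in each of the 4 pairs, the RSC partner fell in 3 pairs, and RSC6 did not pass (adjusted p = 0.24). Late after H2O2 the same pairs were at -0.24 ± 0.14 and -0.73 ± 0.19, -0.13 ± 0.11 and -0.56 ± 0.15, -0.39 ± 0.11 and -0.58 ± 0.12, and -0.18 ± 0.12 and -0.26 ± 0.10. For SNF2 the late MMS change was 0.43 without the 0 min array of the H2O2 course. Within the H2O2 course SNF2 read 8.97 at 0 min and 9.02, 8.98 and 8.89 in the late arrays. Differences between the partners were not tested.

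**Figure D4:**
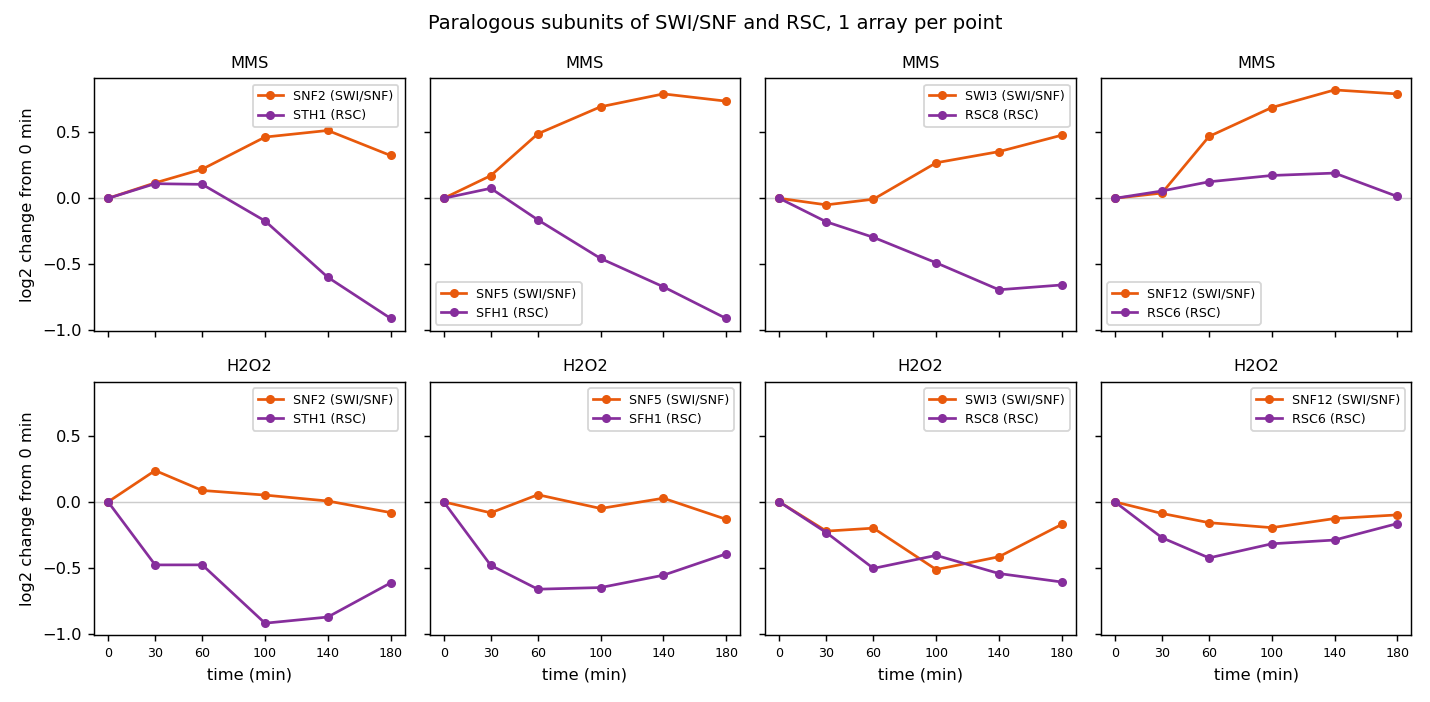
Log2 change from the 0 min array of the course (y axis) against minutes (x axis) for 4 pairs of paralogous subunits, SWI/SNF in orange and RSC in purple, with MMS above and H2O2 below and 1 array per point. At 180 min of MMS each SWI/SNF line lies above its RSC partner.

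The early MMS window held fewer calls. Against time 0, 6 of 39 members rose and 5 fell (28.2%), where 33.1% of all genes were called, 18.7% up and 14.3% down. INO80 (0.44 ± 0.14), IES1 (0.49 ± 0.17), SWR1 (0.56 ± 0.18), SWC4 (0.49 ± 0.16), SWC5 (0.83 ± 0.18) and SNF5 (0.41 ± 0.13) rose. IES3 (-0.74 ± 0.11), ARP4 (-0.50 ± 0.10), SWC3 (-0.45 ± 0.10), SWC7 (-1.22 ± 0.25) and SNF11 (-0.40 ± 0.13) fell. No RSC gene passed in the main fit, with 1 of 10 at an unadjusted p under 0.05 with limma, and the RSC median was 0.05. With arrays centred on their medians 2 rose and 6 fell, and with quantile normalization 3 rose and 6 fell. RSC2 fell in both of these settings (-0.39 and -0.40), and IES1, SWR1 and SWC4 passed in neither. INO80 did not pass with centred arrays. SWC7 was at -0.76 without the 0 min array of the MMS course. Without the 60 min MMS array INO80 was at 0.27, IES1 at 0.23, SWR1 at 0.38, SWC4 at 0.23, SNF5 at 0.25 and SWC5 at 0.49. Without the 30 min one IES1 and SWC4 were at 0.75 and 0.76. With time point as a random replicate block the count of 11 was 5. It was 2 without the 60 min MMS array, 3 and 2 without the 0 min array of the MMS and H2O2 course, 5 and 6 without the 140 and 180 min H2O2 arrays, and 5 without the 140 min MMS array.

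Between the MMS windows, late against early, 12 members rose and 10 fell (56.4%), where 48.6% of all genes were called, 27.1% up and 21.5% down. The largest rises were in IES2 (0.86 ± 0.15) and IES1 (0.81 ± 0.15) and the largest fall in SWI1 (-1.02 ± 0.18). RSC fell in 6 of 10 genes with a median of -0.39, and SWI/SNF rose in 4 of 7 with a median of 0.40. Without the 30 min MMS array the SWI/SNF median was 0.25 and the count of 22 was 4 (IES1, IES2, VPS72 and SWI1), which passed with each array left out in turn. Without the 140 min MMS array the count was 13. Between the H2O2 windows 4 members fell and none rose (10.3%), where 9.07% of all genes were called, 4.31% up and 4.75% down. At an unadjusted p under 0.05 limma gave 10. NHP10 passed downward only with arrays centred on their medians (-0.34) or with quantile normalization (-0.35). The 4 of the main fit were INO80, SWR1, VPS71 (-0.46 ± 0.12) and RSC1 (-0.47 ± 0.09). That count was 2 with time point as a random replicate block, 0 without the 140 min H2O2 array, 7 without the 30 or the 60 min MMS array, and 1 without either 0 min array, the 30 or the 180 min H2O2 array or the 140 min MMS array.

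MMS was compared with H2O2 directly, for which the 0 min arrays enter only the estimate of spread. Late, 21 members were higher and 5 lower after MMS than after H2O2 (66.7%), where 70.5% of all genes differed, 39.2% up and 31.3% down. The share called was near that of all genes. With each array left out in turn the count was 26 or 27, and SNF11 alone lost its call, without the 180 min MMS array (-0.31). SWI/SNF differed in all 7 genes (5 higher, 2 lower, median 0.91), SWR1 in 9 of 12 (7 higher, 2 lower, median 0.77), INO80 in 10 of 13 (7 higher, 3 lower, median 0.55) and RSC in 2 of 10 (both higher, median 0.08). The median of all genes was 0.10, and that of RSC was -0.044 without the 100 min MMS array.

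The widest late differences were in IES2 (2.78-fold higher after MMS, 1.47 ± 0.13), SWC5 (2.75-fold, 1.46 ± 0.15), IES1 (2.73-fold, 1.45 ± 0.14) and ARP5 (2.35-fold, 1.23 ± 0.11), each with adjusted p of 4.14e-05 or less. SNF2 (0.91 ± 0.12), SWR1 (0.84 ± 0.15) and INO80 (0.70 ± 0.11), the ATPase genes of their complexes, were higher after MMS too. SNF2, the gene at the SWI/SNF median, already stood 0.47 higher in the MMS course at 0 min. SWI1 (-0.89 ± 0.16), RVB1 (-0.54 ± 0.12), IES3 (-0.40 ± 0.09), ARP4 (-0.36 ± 0.08) and SNF11 (-0.35 ± 0.11) were lower. For STH1, the ATPase gene of RSC, the difference was 0.11 ± 0.17 (adjusted p = 0.579), with a 95% interval from -0.27 to 0.48. The RSC genes that differed were RSC1 (0.60 ± 0.08) and RSC6 (0.39 ± 0.09). Among those that did not pass, the differences ran from -0.14 ± 0.10 in RSC2 (95% interval -0.37 to 0.09) to 0.50 ± 0.24 in HTL1 (95% interval -0.04 to 1.03).

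The change from the early to the late window differed between the courses in 21 members (53.8%), with 16 above and 5 below the H2O2 change, where 44.7% of all genes differed, 22.9% up and 21.8% down. IES2 (1.24 ± 0.21) and SWI1 (-1.10 ± 0.26) differed most. This test was run in the main fit only and not repeated with an array left out.

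Early, 3 members were higher after MMS than after H2O2 and none lower (7.69%), where 8.13% of all genes differed, 5.74% up and 2.39% down. At an unadjusted p under 0.05 limma gave 18. The 3 were ARP5 (0.63 ± 0.13), SNF5 (0.51 ± 0.13) and RSC6 (0.45 ± 0.11), of which SNF5 and RSC6 did not pass with arrays centred on their medians. The count was 0 without the 60 min array of either course, 9, 6 and 5 without the 30, 100 and 180 min MMS arrays, and 1 without either 0 min array or the 140 min array of either course. With time point as a random replicate block the early count was 14 and the late one 30.

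Subunits and partners outside the 40 genes were followed for context. Of 10 further subunits of these complexes 2 rose and 2 fell late after MMS, where 74.9% of all genes were called. ARP7, shared by SWI/SNF and RSC (0.83 ± 0.13), and ARP6 of SWR1 (0.58 ± 0.11) rose, and RTT102, also shared by SWI/SNF and RSC (-1.22 ± 0.14), and TAF14, a YEATS-domain protein of INO80, SWI/SNF and other assemblies (-0.95 ± 0.15), fell. HTZ1, which encodes the H2A.Z that SWR1 deposits, fell late after MMS (-1.67 ± 0.18) and late after H2O2 (-0.64 ± 0.18), with signals of 10.82, 10.30, 9.80, 9.47, 9.25 and 8.94 over the MMS course and 10.95, 10.49, 10.18, 10.17, 10.23 and 10.34 over the H2O2 course. In the same window 7 of the 9 SWR1 subunits not shared with INO80 rose. The H2A.Z chaperone genes CHZ1 (-0.14 ± 0.08) and NAP1 (-0.11 ± 0.09) did not pass. BDF2, the paralogue of BDF1, passed the test upward (0.51 ± 0.19), but its groups overlapped: the late MMS arrays read 8.44, 8.07 and 8.58, against 7.57 at 0 min of MMS and 8.12 at 0 min of H2O2.

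All 9 NuA4 genes outside SWR1 were called late after MMS, 6 up and 3 down, where 74.9% of all genes were called, 40.3% up and 34.6% down, with EAF3 (1.0 ± 0.14) and EAF1 (0.98 ± 0.19) among those that rose and TRA1 (-2.30 ± 0.32) and EAF5 (-0.91 ± 0.11) among those that fell. Of 11 genes of other remodellers 3 rose and 4 fell. FUN30, a remodeller of DNA-end resection (-1.69 ± 0.27), and MOT1, which removes TATA-binding protein from DNA (-1.71 ± 0.25), fell, and ITC1 (0.78 ± 0.12) and IOC4 (0.54 ± 0.12), subunits of the ISW2 and ISW1 complexes, rose. Early after H2O2 6 of the 11 other remodeller genes fell (median -0.43), beside 6 of 10 in RSC (median -0.42). Of the 10 further subunits 2 fell, and of the 9 NuA4 genes 1 rose and 1 fell, where 14.7% of all genes rose and 19% fell. Late after H2O2 5 of the 10 further subunits, 4 of the 11 other remodeller genes and 1 of the 9 NuA4 genes fell. None rose late in these 3 lists, where 9.12% of all genes rose and 6.28% fell.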

How the data were processed

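RNA of whole cultures was measured on 12 Affymetrix yeast arrays, 1 per stress and time. The deposited values are log2 signals per probe set that the authors computed with RMA, per the submitters' processing notes; the software version, and whether all arrays were normalized together, is not given in the sources used here. Of 5900 probe sets 184 were controls and 218 had no gene in GEO's platform annotation; the other 5498 gave 5449 genes, after 12 symbols were updated through RefSeq, and of several probe sets for a gene the brightest on average was used, which concerned 47 genes and no member.

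Genes were tested on the log2 scale with limma 3.58.1 (lmFit and eBayes, R 4.3.3, statmod 1.5.0) in a model with 5 groups, time 0 and an early and a late window of each course, over all 5449 genes with no filter on dim signals. This left 7 residual degrees of freedom, with a median residual SD of 0.17. P-values were adjusted by Benjamini-Hochberg over all genes within each of 8 comparisons, and over 1 test of the difference between the courses in late against early change. The labels do not say that arrays come from separate cultures. The members, the gene lists, the windows and the tests were chosen with earlier results of these data known. The value of every array was given for the 4 ATPase genes, the 3 shared genes, RSC1, RSC2, RSC3 and, per complex, the 2 called members with the largest rise and the 2 with the largest fall against time 0. Up to 4 genes of each context list were named by the size of their late change, and the RSC subunits NPL6, LDB7 and RSC58 were named outside that rule.

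On simulated data with 200 of 5449 genes changed, the fit recovered 70% of log2 changes of 1 and 30% of changes of 0.5 in late MMS against time 0, with 6 false calls of 106. In early H2O2 against time 0 it recovered 65% and 30%, with 2 false calls of 97. In late MMS against late H2O2 it recovered 80% and 34%, with 6 of 120. In the measured data these comparisons called 4082, 1834 and 3840 genes, many more than the 200 changed in the simulation. The adjusted cutoff depends on that share, so the simulated rates describe the simulated data only and give no error rate for the calls reported here. Alternatives were each course's own 0 min array as its baseline, centring or quantile normalization of the arrays, leaving out the dimmest 25% of genes, a robust trended fit, averaging a gene's probe sets, adjusting over 5716 probe sets, other early windows, time point as a block, only the arrays compared, and leaving out each array. In the main fit same-time arrays of the courses were not treated as pairs, since the labels give no shared culture or day. With time point as a random block their estimated correlation was 0.35. The number of arrays limits the precision, and the arrays carry no counts.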

Additional observations from a re-analysis of the deposited data

Results flagged for a closer look

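For 21 of the 39 members the change from the early to the late window differed between the courses. The test was the interaction term of the limma fit, the late against early change of MMS minus that of H2O2 on the log2 scale, with p-values adjusted over all 5449 genes. Of all genes 44.7% passed it, 22.9% upward and 21.8% downward, and of the members 53.8% did, 16 upward and 5 downward.

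In INO80 the difference was 1.24 for IES2 (adjusted p = 0.00735), 1.02 for IES1, 0.64 for INO80, 0.60 for ARP5, 0.49 for NHP10 and 0.36 for ARP8, and it was -0.84 for RVB1, which SWR1 shares. In SWR1 it was 0.94 for SWC5, 0.80 for VPS72, 0.74 for SWR1, 0.58 for SWC4 and 0.58 for VPS71. SWI/SNF had 0.55 for SWI3, 0.53 for SNF12, 0.50 for SNF6, 0.45 for SNF5 and -1.10 for SWI1 (adjusted p = 0.0116). RSC was split, with 0.48 for RSC1 against -0.67 for SFH1, -0.59 for RSC3 and -0.44 for RSC2 (adjusted p = 0.0496). With 2 or 3 arrays in a window, no test for a single outlying array was run.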

How the results depend on the processing

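Over the 24 alternative settings 6564 of 7230 member results stayed on the same side of the threshold, among them those called in neither fit. A call was lost in 548 and gained in 118, and no call changed sign. The causes of the changes below were not tested. Late MMS against late H2O2 gave 26 or 27 called members with each array left out in turn and 28 with time point as a fixed replicate block. The calls of the other comparisons moved more. With each course's own 0 min array as its baseline 2 members passed early after H2O2, 0 late after H2O2 and 2 early after MMS, 1 fell between the H2O2 windows, 1 differed early between the agents, and the SWI/SNF median late after MMS was 0.43. Early between the agents 1 differed with centred arrays and 1 with quantile normalization. Without the dimmest 25% of genes 2 fell between the H2O2 windows and the SWR1 median early after H2O2 was -0.025.

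With 30 min alone as the early window 1 member passed early after H2O2, 8 late after H2O2, 0 early after MMS, 0 between the H2O2 windows, 7 between the MMS windows and 0 early between the agents. Medians were then 0.079 for SWI/SNF early after MMS, 0.24 for SWR1 between the MMS windows, -0.022 for INO80 and 0.26 for SWI/SNF early between the agents, and 0.64 for SWR1 late between them. With 30 to 100 min as the early window the counts were 0 late after H2O2, 0 between the H2O2 windows, 9 between the MMS windows and 16 early between the agents, and the medians 0.37 for SWI/SNF early after MMS, 0.045 for INO80 between the MMS windows and 0.61 for SWI/SNF early between the agents. With only the arrays compared 6 passed early after H2O2, 0 early after MMS, 0 between the H2O2 windows, 7 between the MMS windows and 0 early between the agents.

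Time point as a random replicate block gave 6 members late after H2O2, 5 early after MMS, 2 between the H2O2 windows and 14 early between the agents, and the fixed block, an alternative chosen after seeing the data, gave 10 early between the agents. Leaving out each array in turn gave 2 to 14 members early after H2O2, 0 to 17 late after H2O2, 2 to 15 early after MMS, 25 to 35 late after MMS, 0 to 7 between the H2O2 windows, 4 to 22 between the MMS windows and 0 to 9 early between the agents. Medians then ran from 0.43 to 0.77 for SWI/SNF late after MMS, 0.079 to 0.33 for SWI/SNF early after MMS, 0.25 to 0.43 for SWI/SNF between the MMS windows, 0.045 to 0.22 for INO80 and 0.054 to 0.26 for SWR1 early between the agents, and -0.044 to 0.15 for RSC late between them.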

Other observations

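The 0 min arrays of the courses, MMS minus H2O2, differed most among the members in SWC7 (0.93), SNF2 (0.47), BDF1 (0.30), SWI1 (0.27) and HTL1 (-0.27), on the log2 scale and with 1 array each.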
